A study of Mus musculus with 10 samples.

Results

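Notch3, Prag1, Lars2, Tmem63a, Zdhhc15 and Slamf1 are 6 of the 35427 genes measured in mouse embryonic stem cell (ESC) lines that carry no, 1 or 2 working alleles of Tdg. They lie outside chromosome 11 and were picked from the data for a difference between Tdg-/- and Tdg+/- lines. What the choice left unused is where the wild-type lines fall, which transcripts carried the reads, and what the neighbouring and related genes did. The gene-level difference between the mutant genotypes is therefore given as a description, and nothing is read from its p values.

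RNA was sequenced from 10 male ESC lines: 4 Tdg-/- lines, 3 Tdg+/- lines and 3 Tdg+/+ lines (wt), each line 1 library. The lines were derived on a C57BL/6 background from matings of Tdg+/- animals, first grown on feeder cells and then without them, in medium with LIF. Each line is its own derivation, and the labels do not say which lines came from the same mating. The spread behind each p value is that from line to line. Read counts here are Salmon's estimated counts summed per gene, and CPM is a count per 1000000 reads in genes, scaled by TMM factors.

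TDG is a DNA glycosylase that removes thymine from G:T mismatches and the oxidised cytosines formyl- and carboxylcytosine, most of which sit where a cytosine precedes a guanine (CpG). Base excision repair then puts back an unmodified cytosine, so that TDG completes active DNA demethylation. The 6 genes belong to unrelated pathways: Notch signalling, cytoskeletal signalling by a pseudokinase, translation in mitochondria, a mechanically gated channel, protein palmitoylation and lymphocyte adhesion.

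Tdg itself was at 7.76 to 10.6 CPM in Tdg-/- lines, 40.3 to 45.9 CPM in Tdg+/- lines and 86.5 to 93.2 CPM in wt lines, with no overlap. The libraries held 31095354 to 39916106 reads in genes. Pluripotency markers summed to 3759 to 4079 CPM in Tdg-/-, 3664 to 4058 CPM in Tdg+/- and 3552 to 3986 CPM in wt lines, and feeder fibroblast markers to 13.7 to 35.4 CPM in Tdg-/-, 5.86 to 49.9 CPM in Tdg+/- and 23.6 to 46.2 CPM in wt lines. Some libraries stood apart. Over genes of at least 5 CPM, chromosome 11 had a median log2 difference from the 10-line median of 0.20 to 0.42 in Tdg+/- lines, against -0.13 to -0.08 in wt lines. Chromosome 16 was at 0.40 in wt line 1, against -0.01 and 0.00 in wt lines 2 and 3. Tdg-/- line 1 differed from the other Tdg-/- lines by 87.4 to 143.8 chi-square units per gene, against 19.2 to 27.6 units among those 3 lines. Wt line 1 differed from wt lines 2 and 3 by 54.5 and 72.2 units, against 20.9 units between those 2 lines. Tdg+/- line 1 differed from Tdg+/- lines 2 and 3 by 42.6 and 58.2 units, against 27.0 units between those 2 lines. On the chromosomes of the 6 genes the medians stayed between -0.12 and 0.07 in every line. On the X chromosome, where Zdhhc15 lies, the Tdg+/- lines were lowest, at -0.03, -0.04 and -0.12. The X medians were -0.01 to 0.04 in Tdg-/- lines and 0.00 to 0.07 in wt lines.

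Of the 6 genes, 5 had an adjusted p under 0.05 between Tdg-/- and Tdg+/- lines and 5 had lines that did not overlap. Over all 13962 genes tested the shares were 9.03% called and 24.5% not overlapping. Since this contrast was used for picking, nothing is read from these counts. Slamf1 is the gene outside both counts, and its Tdg-/- and Tdg+/- lines overlapped. The number called was 4 with an offset for effective transcript length, 3 to 5 when 1 line was left out and 0 with the replicate number as a block.

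Against wt, where the mutant lines are shared with the picking contrast and p values are not independent of it, 0 of the 6 genes passed in either mutant genotype (edgeR). In Tdg-/- lines 4 genes had an unadjusted p under 0.05 and DESeq2 called 2. Over all 13926 genes tested 0.0718% passed with edgeR, 15.9% had an unadjusted p under 0.05, and DESeq2 called 0.815% of the 12022 to which it gave an adjusted p. In Tdg+/- lines 4 genes had an unadjusted p under 0.05 and DESeq2 called 2. Over all 13880 genes tested 0.0288% passed with edgeR, 17% had an unadjusted p under 0.05, and DESeq2 called 5.94% of 12521. The lines of 3 genes did not overlap between Tdg-/- and wt (Prag1, Zdhhc15 and Slamf1), against 9.8% of all genes. The lines of 3 genes did not overlap between Tdg+/- and wt (Tmem63a, Zdhhc15 and Slamf1), against 21.7% of all genes.

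**Figure D1:**
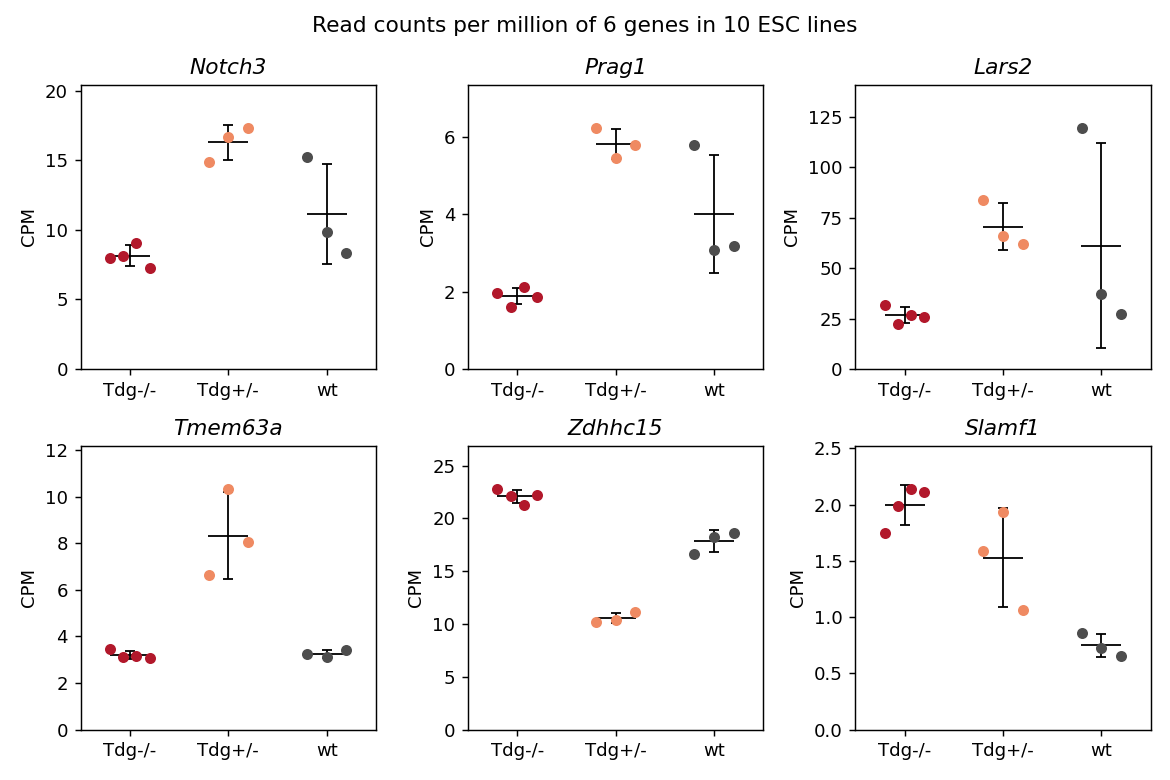
Scaled read counts (CPM, y axis, from 0) of the 6 genes in the 4 Tdg-/-, 3 Tdg+/- and 3 wt ESC lines. Points are single lines in the order of their replicate numbers from left to right, and horizontal bars with whiskers are the mean ± SD; wt line 1 sits with the Tdg+/- lines for Notch3 and Prag1 and above them for Lars2, at 119 CPM.

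Tmem63a encodes a membrane protein of the OSCA/TMEM63 family of channels that open under membrane stretch. It was at 3.44, 3.12, 3.15 and 3.06 CPM in the Tdg-/- lines, at 6.61, 10.3 and 8.05 CPM in the Tdg+/- lines and at 3.23, 3.11 and 3.42 CPM in the wt lines. Only the Tdg+/- lines were high, and Tdg-/- and wt lines overlapped. In such bulk RNA, more cells that express a gene and more RNA per cell cannot be told apart. The Tdg+/- lines averaged 8.33 ± 1.87 CPM, against 3.25 ± 0.16 CPM in wt lines (SD, n = 3 each), a log2 fold change of 1.35 (SE 0.21, edgeR adjusted p = 0.0814). Against wt the Tdg-/- lines differed by a log2 fold change of -0.004 (SE 0.17, edgeR adjusted p = 0.992), and against Tdg+/- by -1.38 (SE 0.18) in the contrast used for picking. The comparison of Tdg+/- with wt lines passed the threshold with DESeq2 (adjusted p = 1.34e-05), with 3 surrogate variables (0.000804), with no filter beyond 1 read (0.0148), with all 10 lines in 1 fit (0.0363) and without Tdg+/- line 1 (0.0285). With an offset for effective transcript length the log2 fold change was 0.46 (adjusted p = 0.655), and that of Tdg-/- against Tdg+/- was -0.75.

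That length setting bears on Tmem63a more than on the other genes. Of its reads, 90.7% over all lines were on the 3258-base transcript Tmem63a-205, which held 107, 104, 99 and 87 reads in Tdg-/-, 209, 375 and 280 reads in Tdg+/- and 97, 105 and 98 reads in wt lines. With so large a share of the reads, this transcript had to follow the gene, so its counts are a description only. A further 7 annotated transcripts held 33 reads at most in a line, several of them 241 to 704 bases long, where a few reads weigh heavily once divided by length. Tmem63a-205 held 40.3% of the gene's TPM in Tdg+/- lines and 18.2% in wt lines, against 91.1% and 91.3% of its reads. The ratio of Tdg+/- to wt group means was accordingly 1.36 on the log2 scale in CPM and 0.53 in TPM.

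Zdhhc15 encodes a palmitoyltransferase of the DHHC family, enzymes that attach palmitate to cysteines of other proteins. It was at 22.8, 22.1, 21.3 and 22.2 CPM in Tdg-/- lines, at 10.2, 10.4 and 11.2 CPM in Tdg+/- lines and at 16.7, 18.2 and 18.7 CPM in wt lines. No 2 genotypes overlapped, with Tdg-/- highest and Tdg+/- lowest. The Tdg+/- lines averaged 10.6 ± 0.50 CPM, against 17.8 ± 1.05 CPM in wt (SD, n = 3 each), a log2 fold change of -0.76 (SE 0.13, edgeR adjusted p = 0.0814). This passed with DESeq2 (adjusted p = 8.04e-05), with 3 surrogate variables (0.00107), with no filter beyond 1 read (0.0397) and with all 10 lines in 1 fit (0.0363), and the adjusted p was 0.0526 to 0.349 when 1 line was left out. The Tdg-/- lines averaged 22.1 ± 0.63 CPM (SD, n = 4), a log2 fold change against wt of 0.33 (SE 0.11, edgeR adjusted p = 0.295). Without Tdg-/- line 1 that adjusted p was 0.0425, at a log2 fold change of 0.32. The gene has 1 annotated transcript, so its 342 to 803 reads per line were not divided among isoforms.

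Notch3, Prag1 and Lars2 were low in every Tdg-/- line and high in every Tdg+/- line, with wt line 1 at or above the Tdg+/- level and wt lines 2 and 3 below every Tdg+/- line. Notch3, a receptor whose intracellular part is cut free by ligand binding and acts on transcription, was at 8.0, 8.14, 9.09 and 7.25 CPM in Tdg-/- lines, at 14.9, 16.7 and 17.3 CPM in Tdg+/- lines and at 15.2, 9.84 and 8.34 CPM in wt lines. Wt line 1 lay among the Tdg+/- lines, wt line 3 among the Tdg-/- lines, and wt line 2 just above the Tdg-/- lines. Against wt the log2 fold change was -0.43 in Tdg-/- lines (SE 0.21, edgeR adjusted p = 0.326) and 0.54 in Tdg+/- lines (SE 0.22, edgeR adjusted p = 0.266). Without wt line 1 these were -0.14 in Tdg-/- lines (adjusted p = 0.632) and 0.84 in Tdg+/- lines (adjusted p = 0.0568). Nearly all Notch3 reads, 99.9%, were on the 8016-base coding transcript Notch3-201.

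Prag1 encodes a pseudokinase of the PEAK family that binds the Src-inhibiting kinase CSK and the small GTPase RND2. It was at 1.96, 1.60, 2.11 and 1.87 CPM in Tdg-/- lines, at 6.23, 5.46 and 5.78 CPM in Tdg+/- lines and at 5.78, 3.08 and 3.17 CPM in wt lines. Every wt line was above every Tdg-/- line, and wt line 1 was within the range of the Tdg+/- lines. The Tdg-/- lines averaged 1.89 ± 0.21 CPM (SD, n = 4), against 4.01 ± 1.53 CPM in wt (SD, n = 3), a log2 fold change of -1.06 (SE 0.26, edgeR adjusted p = 0.295). Without wt line 1 it was -0.71 (adjusted p = 0.363), with DESeq2 the adjusted p was 0.0450, and without Tdg-/- line 1 it was 0.0336. The Tdg+/- lines differed from wt by a log2 fold change of 0.53 (SE 0.27, edgeR adjusted p = 0.356), and by 0.90 without wt line 1 (adjusted p = 0.0643). Prag1-201, the 4780-base coding transcript, held 85.2% of the reads, and the retained-intron transcript Prag1-203 held 12.1%.

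Lars2 encodes the mitochondrial leucyl-tRNA synthetase, which charges the mitochondrial tRNA for leucine. It was at 31.6, 22, 26.9 and 25.8 CPM in Tdg-/- lines, at 83.7, 65.8 and 62.0 CPM in Tdg+/- lines and at 119, 37.1 and 27.1 CPM in wt lines. Wt line 1 was the highest of the 10 lines and wt line 3 fell within the Tdg-/- range, so that the wt mean of 61.2 ± 50.6 CPM (SD, n = 3) describes no wt line. Against wt the log2 fold change was -1.18 in Tdg-/- lines (SE 0.42, edgeR adjusted p = 0.295) and 0.20 in Tdg+/- lines (SE 0.48, edgeR adjusted p = 0.867). Without wt line 1 the values were -0.25 in Tdg-/- lines (adjusted p = 0.480) and 1.13 in Tdg+/- lines (adjusted p = 0.0559), and the Tdg+/- value turned to -0.06 without wt line 2 and to -0.16 without wt line 3. Whether what sets wt line 1 apart on chromosome 16 has a part in its levels of Notch3, Prag1 and Lars2, which lie on chromosomes 17, 8 and 9, was not tested.

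The Lars2 reads were divided almost wholly between 2 of its 9 annotated transcripts. Lars2-209, annotated as a target of nonsense-mediated decay, was at 26.7, 0, 14.1 and 14.2 CPM in Tdg-/- lines, at 77.7, 58.7 and 56.8 CPM in Tdg+/- lines and at 110, 12.9 and 18.2 CPM in wt lines. The coding transcript Lars2-201 was at 4.03, 21.0, 12.4 and 10.4 CPM in Tdg-/- lines, at 5.52, 6.09 and 4.41 CPM in Tdg+/- lines and at 8.48, 23.4 and 8.12 CPM in wt lines. The high level of the gene in Tdg+/- lines and in wt line 1 was thus a high level of Lars2-209, while Lars2-201 was at 4.41 to 8.48 CPM in these 4 lines and at 4.03 to 23.4 CPM in the others. Lars2-209 held 90.6% to 93.4% of the reads of both transcripts in Tdg+/- lines and 92.9% in wt line 1. In Tdg-/- lines its share spread over 86.9%, 0%, 53.3% and 57.8%, and in wt lines 2 and 3 it was 35.5% and 69.2%.

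How firmly Salmon can divide these reads is limited by the sequences, which is why they are shown here. Lars2-201 is 3894 bases long and Lars2-209 is 3756, and 3751 bases are the same in both. Apart from some bases at their ends, they differ inside the coding region. There Lars2-201 has 116 bases that Lars2-209 skips, and Lars2-209 has 3 of its own. The lines below give, 5′ to 3′, positions 1406 to 1581 of Lars2-201 and 1379 to 1441 of Lars2-209 in GENCODE's transcripts of chromosome 9 on GRCm38, with the differing bases in capitals. The lengths are those in the deposited files.
Lars2-201: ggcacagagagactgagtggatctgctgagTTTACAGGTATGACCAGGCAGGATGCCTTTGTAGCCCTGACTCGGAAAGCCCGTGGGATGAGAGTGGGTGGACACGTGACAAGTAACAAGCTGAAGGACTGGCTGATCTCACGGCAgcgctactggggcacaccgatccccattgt
Lars2-209: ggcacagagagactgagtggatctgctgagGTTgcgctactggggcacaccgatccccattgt
A read that covers none of the capitals, their junctions or the differing ends fits both transcripts. The files do not tell how many reads did cover them, so the per-transcript levels are given with no test and the sum of both is the firmer value. That sum was 30.8, 21.0, 26.4 and 24.5 CPM in Tdg-/- lines, 83.2, 64.8 and 61.2 CPM in Tdg+/- lines and 119, 36.2 and 26.3 CPM in wt lines. It holds nearly all reads of the gene. Since Lars2 was picked for its gene-level difference between the mutants, nothing is read from the gap between them in this sum.

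**Figure D2:**
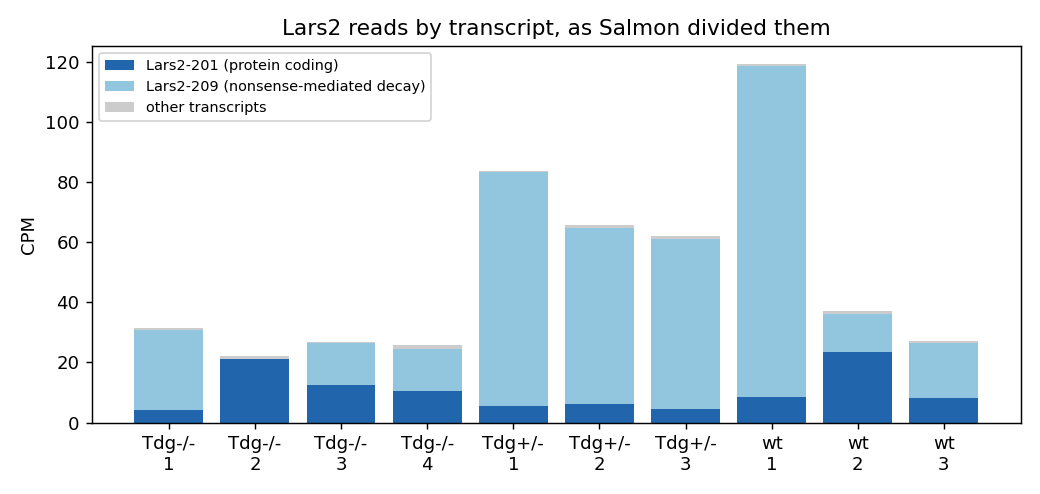
Lars2 CPM (y axis, stacked from 0) by transcript in each of the 10 lines, Tdg-/- lines on the left, Tdg+/- lines in the middle and wt lines on the right. Lars2-209 makes up most of the bar in the Tdg+/- lines and wt line 1 and is at 0 in Tdg-/- line 2.

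Slamf1 encodes a receptor of the SLAM family, which binds its own kind on neighbouring cells and is known from lymphocytes and haematopoietic stem cells. It was at 1.75, 1.99, 2.14 and 2.11 CPM in Tdg-/- lines, at 1.59, 1.93 and 1.06 CPM in Tdg+/- lines and at 0.861, 0.730 and 0.659 CPM in wt lines. Both mutant genotypes were above wt in every line and overlapped with each other. The log2 fold change was 1.43 in Tdg-/- lines (SE 0.24, edgeR adjusted p = 0.137) and 1.01 in Tdg+/- lines (SE 0.32, edgeR adjusted p = 0.180) against wt, and 0.39 (SE 0.25) between Tdg-/- and Tdg+/-. In Tdg-/- lines the comparison passed with DESeq2 (adjusted p = 0.00227) and without Tdg-/- line 1 (adjusted p = 0.0102).

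The Slamf1 reads were few and nearly all on a transcript that is not annotated as coding. The retained-intron transcript Slamf1-202, 4420 bases long, held 57, 72, 76 and 71 reads in Tdg-/- lines, 53, 72 and 43 reads in Tdg+/- lines and 27, 27 and 21 reads in wt lines. The coding transcript Slamf1-201 held 0 to 2 reads in each line. Of 8 haematopoietic markers, Ptprc and Lyz2 were among those that had at most 3 reads in every line, and the 8 summed to 3.53 to 5.16 CPM in Tdg-/-, 3.50 to 4.27 CPM in Tdg+/- and 3.58 to 5.07 CPM in wt lines, so that these markers did not differ as Slamf1 did.

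To see which mutant genotype departs from wt, each wt line was placed on the log2 CPM scale between the mean of the Tdg-/- lines, set to 1, and the mean of the Tdg+/- lines, set to 0. The mean place was 0.98 ± 0.05 for Tmem63a and 0.71 ± 0.08 for Zdhhc15 (SD over the wt lines, n = 3), with all 3 wt lines nearer to the Tdg-/- lines. It was 0.59 ± 0.45 for Notch3, 0.37 ± 0.32 for Prag1 and 0.36 ± 0.80 for Lars2, where wt line 1 was at 0.09, 0.01 and -0.55 and wt lines 2 and 3 were at 0.54 to 0.97. For Slamf1 the wt lines lay outside the mutant genotypes, on the side away from Tdg-/-, so a place between them has no meaning. Among the 969 genes outside chromosome 11 that were called between Tdg-/- and Tdg+/- lines, the median place was 0.56, and 59.1% had wt nearer to Tdg-/- than to Tdg+/-.

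**Figure D3:**
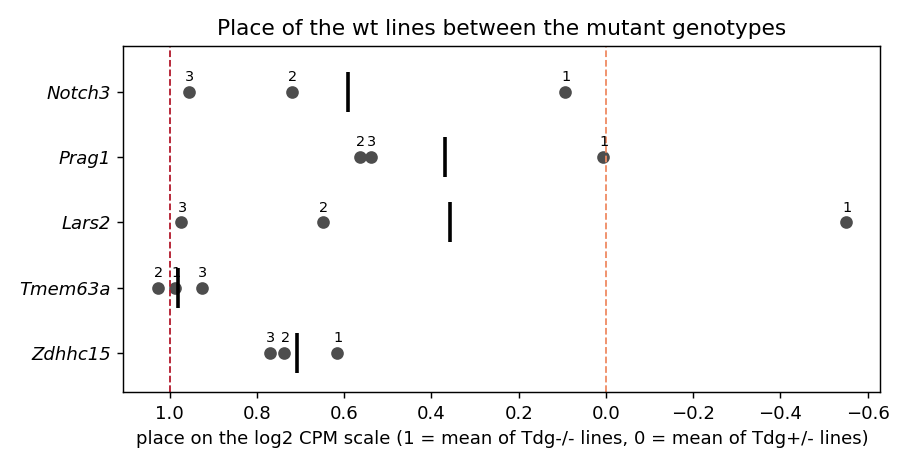
Place of the wt lines (points, numbered by replicate) between the mean of the Tdg-/- lines (1, left dashed line) and the mean of the Tdg+/- lines (0, right dashed line) on the log2 CPM scale, with the mean of the 3 wt lines as a vertical bar, for the 5 genes whose mutant genotypes did not overlap. The wt lines are close together for Tmem63a and Zdhhc15 and spread for Notch3, Prag1 and Lars2.

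**Figure D4:**
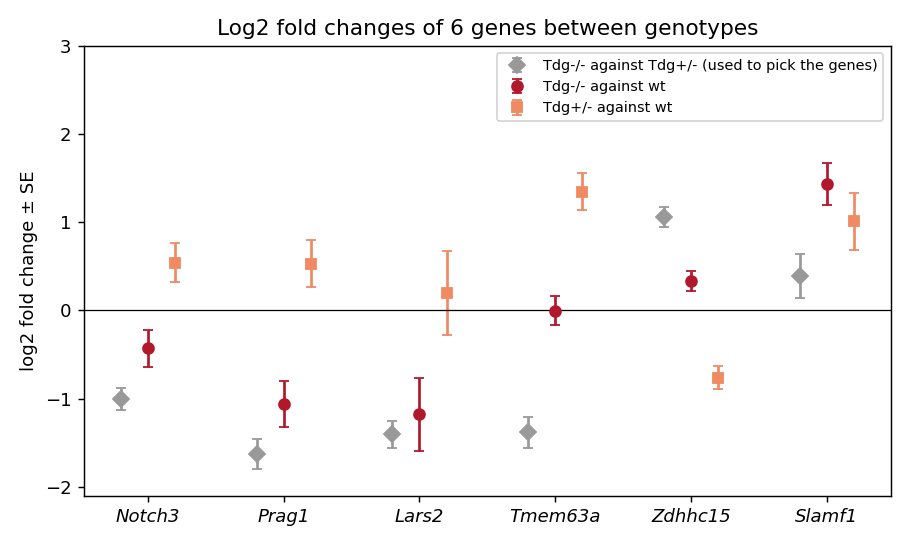
Log2 fold changes ± SE (y axis) of the 6 genes from edgeR for Tdg-/- against Tdg+/-, for Tdg-/- against wt and for Tdg+/- against wt. For Tmem63a the Tdg-/- lines are at -0.004 and the Tdg+/- lines at 1.35 against wt, while for Slamf1 both are above 0, at 1.43 and 1.01.

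The promoters of the 6 genes are not alike in CpG, the sequence in which most TDG substrates lie. RefSeq promoters on GRCm38.p6, 250 bases before and 50 bases after the start, were at hand for 5 of the genes and not for Prag1. The letters CG, which read the same on both strands, occurred 33 times in the promoter of Tmem63a, 25 times in Notch3, 18 times in Lars2 and 4 times each in Zdhhc15 and Slamf1. Of 32851 promoters, 8.56% held at least 33, 18.4% at least 25, 29.7% at least 18 and 68.6% at least 4. The promoters of Tmem63a and Zdhhc15, whose Tdg+/- lines lay on opposite sides of the wt lines, and of Slamf1, whose lines of both mutants lay above the wt lines, are printed 5′ to 3′ on the gene's strand with each CG in capitals. They are from chr1:180942268-180942567 (plus strand), chrX:104671015-104671314 (minus strand) and chr1:171766882-171767181 (plus strand).
Tmem63a: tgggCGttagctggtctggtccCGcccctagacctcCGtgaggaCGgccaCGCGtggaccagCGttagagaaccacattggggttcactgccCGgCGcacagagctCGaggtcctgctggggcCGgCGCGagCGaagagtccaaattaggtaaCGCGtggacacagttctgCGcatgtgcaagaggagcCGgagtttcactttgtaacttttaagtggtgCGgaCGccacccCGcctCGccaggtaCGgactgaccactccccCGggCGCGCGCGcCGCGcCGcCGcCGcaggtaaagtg
Zdhhc15: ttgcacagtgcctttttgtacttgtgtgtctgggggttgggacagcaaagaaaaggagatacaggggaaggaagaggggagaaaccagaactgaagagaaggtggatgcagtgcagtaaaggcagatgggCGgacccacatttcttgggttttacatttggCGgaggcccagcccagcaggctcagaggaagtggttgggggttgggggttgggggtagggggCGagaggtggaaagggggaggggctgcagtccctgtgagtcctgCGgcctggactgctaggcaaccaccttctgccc
Slamf1: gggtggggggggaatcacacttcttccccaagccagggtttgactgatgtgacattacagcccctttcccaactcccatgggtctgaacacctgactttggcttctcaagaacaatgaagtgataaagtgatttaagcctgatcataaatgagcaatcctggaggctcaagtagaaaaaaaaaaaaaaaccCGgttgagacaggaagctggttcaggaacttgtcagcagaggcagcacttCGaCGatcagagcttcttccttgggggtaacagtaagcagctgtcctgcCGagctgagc
None of these 3 genes passed against wt with edgeR, and no relation between CG counts and levels was tested. Methylation was not measured in these files, and the letters alone say nothing about the state of these bases.

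Among the relatives of the 6 genes, 14 lists of pathway members drawn up with earlier results of these data known held 152 other genes. Between Tdg-/- and Tdg+/- lines 126 of them were tested, and 4 were higher and 10 lower in Tdg-/- (edgeR adjusted p under 0.05), against 9.03% of all genes. An unadjusted p under 0.05 was found for 48 of the 126, against 35.2% of all genes, and DESeq2 called 32, against 25.6% of all genes to which it gave an adjusted p. Such calls depended on single lines. Over all genes 1261 were called with every line, 12 without Tdg+/- line 3 and 5659 without Tdg-/- line 1. Against wt, 0 of 128 passed in Tdg-/- lines (17 at an unadjusted p under 0.05 and 0 with DESeq2) and 0 of 126 in Tdg+/- lines (21 and 8).

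The 3 Notch receptors other than Notch3 were lower in Tdg-/- than in Tdg+/- lines, with a median log2 fold change of -0.95, against -0.02 over all genes. These were Notch1, with 10.9 ± 1.99 CPM in Tdg-/- and 21.1 ± 2.22 CPM in Tdg+/- lines, Notch2, with 11.3 ± 1.86 CPM in Tdg-/- and 19.4 ± 3.05 CPM in Tdg+/- lines, and Notch4, with 3.73 ± 0.46 CPM in Tdg-/- and 8.01 ± 2.56 CPM in Tdg+/- lines (SD, n = 4 and 3). The edgeR adjusted p values were 0.0241, 0.0292 and 0.0278. As for Notch3, the wt mean lay between the mutants, at 14.5, 15.5 and 5.50 CPM, and in neither mutant did a receptor pass against wt. Of the ligands, Jag1 was lower in Tdg-/- lines, at 32.0 ± 7.27 CPM against 60.2 ± 13.6 CPM in Tdg+/- lines (edgeR adjusted p = 0.0342), and the other ligand tested, Jag2, was at a log2 fold change of -0.74 (edgeR adjusted p = 0.0614). DESeq2 called both ligands lower.

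Of 14 genes that modify or cut Notch, Poglut1, which adds glucose to the receptor, was higher in Tdg-/- than in Tdg+/- lines (log2 fold change 0.45, edgeR adjusted p = 0.0387). The glycosyltransferase Rfng was lower (log2 fold change -0.70, edgeR adjusted p = 0.0351). In the nuclear complex that Notch joins, 1 of 6 genes passed, the acetyltransferase Kat2a (-1.04, adjusted p = 0.0256), which like Rfng lies on chromosome 11. None of 9 target genes passed (edgeR; 1 at an unadjusted p under 0.05 and 0 with DESeq2), and their median log2 fold change was -0.12. Hes1, the first target of the receptors, was at 45.1 CPM in Tdg-/- (38.1 to 57.3), 51.1 CPM in Tdg+/- (48.2 to 56.1) and 59.3 CPM in wt lines (51.9 to 68.8). None of 10 inhibitors passed either (edgeR; 4 at an unadjusted p under 0.05 and 1 with DESeq2), with a median of -0.33.

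The relatives of the other genes mostly did not share their pattern. Of 18 other mitochondrial aminoacyl-tRNA synthetases 0 were called between Tdg-/- and Tdg+/- lines (edgeR), with a median log2 fold change of 0.06, although 6 had an unadjusted p under 0.05 and 5 passed with DESeq2. Of 18 cytosolic synthetases 2 were higher in Tdg-/- lines, those for serine (Sars, log2 fold change 0.44, adjusted p = 0.0457) and aspartate (Dars, 0.53, adjusted p = 0.0474). Of 19 other DHHC palmitoyltransferases, Zdhhc12 was lower in Tdg-/- lines, at 15.8 ± 1.62 CPM against 24.5 ± 3.01 CPM in Tdg+/- lines (edgeR adjusted p = 0.0316), opposite to Zdhhc15. Among 10 enzymes and partners that remove or support palmitate, Lyplal1 was higher, at 24.1 ± 3.97 CPM in Tdg-/- and 14.3 ± 2.12 CPM in Tdg+/- lines (adjusted p = 0.0342).

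Of the mechanically gated channels, Tmem63b was lower in Tdg-/- lines, at 15.9 ± 3.38 CPM against 26.1 ± 0.42 CPM in Tdg+/- lines (edgeR adjusted p = 0.0342), but its wt mean of 23.9 CPM was near the Tdg+/- level, where that of Tmem63a was near the Tdg-/- level. Tmem63c was below 1 CPM in every line. Of 9 other genes of the PEAK pseudokinases and their partners, 0 passed between the mutants (edgeR; 6 at an unadjusted p under 0.05 and 4 with DESeq2). Prag1's partner Csk was at 18.3, 20.5 and 23.1 CPM in Tdg-/-, Tdg+/- and wt lines, and Rnd2 at 19.3 CPM in Tdg-/-, 24.8 CPM in Tdg+/- and 15.5 CPM in wt lines. Of the other SLAM receptors Slamf6 alone had enough reads for a test, at 0.355 CPM in Tdg-/-, 0.131 CPM in Tdg+/- and 0.218 CPM in wt lines, and it did not pass. Among the adaptors of these receptors, Sh2d1a had at most 0.0276 CPM in a line, and the phosphatase Inpp5d was at 23.8 ± 8.09 CPM in Tdg-/- against 60.7 ± 13.0 CPM in Tdg+/- lines (edgeR adjusted p = 0.0257) and at 23.0 CPM in wt lines. As in Tmem63a, the Tdg+/- mean of Inpp5d was above the other means, and against wt it was at a log2 fold change of 1.39 in Tdg+/- lines (adjusted p = 0.0609).

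The genes next to the 6 on their chromosomes, 3 on each side and 36 in all, were looked at for changes in common. Between Tdg-/- and Tdg+/- lines 2 of 36 were higher and 4 lower in Tdg-/- (edgeR), against 9.03% of all genes called, while 16 had an unadjusted p under 0.05 and DESeq2 called 9, against 35.2% and 25.6% of all genes. Against wt 0 of 36 passed in Tdg-/- lines (5 at an unadjusted p under 0.05, 0 with DESeq2) and 0 of 35 in Tdg+/- lines (7 and 4). Of the genes after Notch3, Ephx3 and Akap8 were lower in Tdg-/- than in Tdg+/- lines, with log2 fold changes of -1.10 and -0.45 (edgeR adjusted p = 0.0478 and 0.0366). For Prag1 and Lars2 0 of 6 neighbours each passed. Lefty2, 3 places before Tmem63a and an inhibitor of Nodal signalling, was at 215 CPM in Tdg-/- (158 to 285), 501 CPM in Tdg+/- (295 to 634) and 156 CPM in wt lines (102 to 193), with a log2 fold change of -1.22 between the mutants (adjusted p = 0.0342) and 1.67 in Tdg+/- against wt (adjusted p = 0.0908). Its neighbour Lefty1 was at 26.6, 31.8 and 25.2 CPM in Tdg-/-, Tdg+/- and wt lines and did not pass.

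The pseudogene Tma7-ps, 1 place before Slamf1, was at 0.113 to 20.3 CPM in Tdg-/- lines, 0.0241 to 0.0784 CPM in Tdg+/- lines and 0 to 6.51 CPM in wt lines. It was nearly silent in every Tdg+/- line and in the lowest line of each other genotype. Between Tdg-/- and Tdg+/- lines its log2 fold change was 7.27 (edgeR adjusted p = 0.0303). Reads of such a copy can be shared with its parent gene, and its counts are uncertain.

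**Figure D5:**
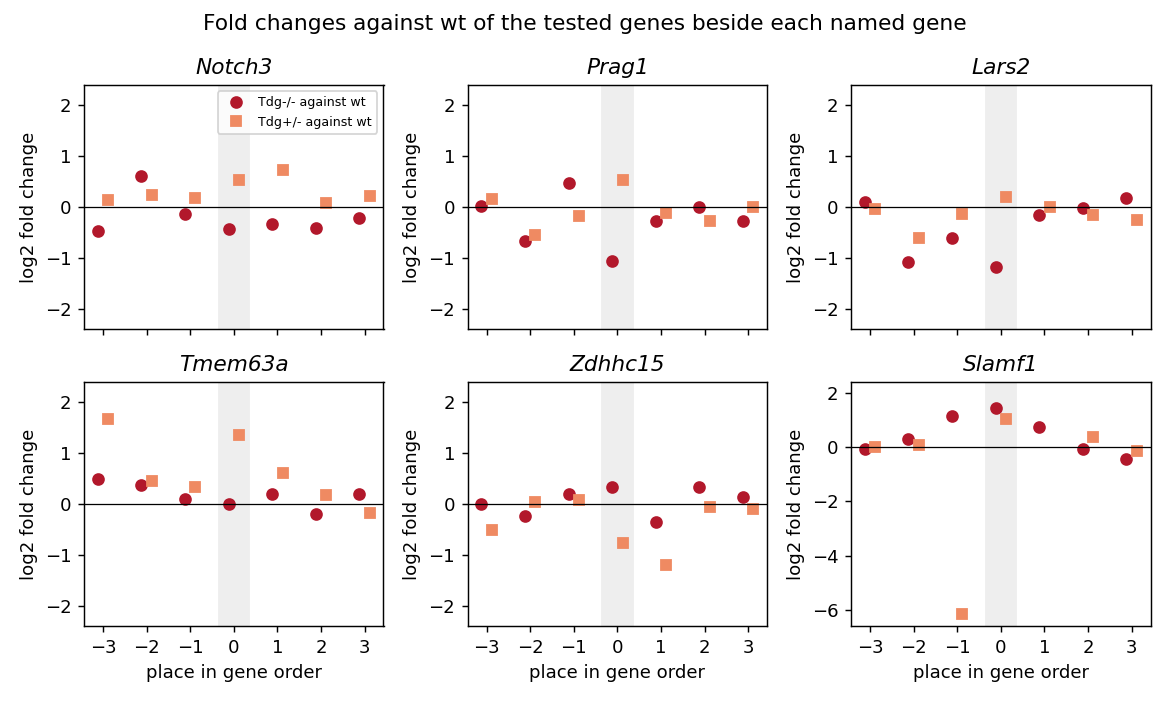
Log2 fold changes (y axis) of Tdg-/- lines against wt (circles) and Tdg+/- lines against wt (squares) for each of the 6 genes (grey band, place 0) and the 3 tested genes on each side of it in chromosome order (x axis). Lefty2, at place -3 beside Tmem63a, is at 1.67 in Tdg+/- lines, and Tma7-ps, at place -1 beside Slamf1, is at -6.16 on that panel's longer axis.

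Over the 10 lines, the genes whose log2 CPM went most closely with each of the 6 were taken from 12193 other genes of at least 1 CPM, as a description by Pearson's r. For Tmem63a these were Zzef1 (r = 0.983), Cpne9 (0.975) and Ksr1 (0.969), of which Zzef1 and Ksr1 lie on chromosome 11, the chromosome that was raised in Tdg+/- lines. For Zdhhc15 they were Gm14870 (0.971), Ttc30a1 (0.969) and Zik1 (0.951). For Slamf1 they were Gm6477 (0.982), 1190007I07Rik (0.937) and Urah (0.937), of which Gm6477 and 1190007I07Rik both lie on chromosome 10. In Tdg-/-, Tdg+/- and wt lines Gm6477 averaged 7.28, 6.01 and 4.05 CPM and 1190007I07Rik 24.9, 16.9 and 11.5 CPM. Whether their shared chromosome has a part in this was not tested. Notch3 went with Rps26 (0.965), Polr2a (0.963) and Ercc4 (0.961), Prag1 with Ago2 (0.966), Gstm2 (0.964) and Rgp1 (0.956), and Lars2 with Rps6kl1 (0.969), U2af1 (0.961) and Tert (0.958). Tert, the catalytic part of telomerase, was at 6.43, 11.7 and 10.6 CPM in Tdg-/-, Tdg+/- and wt lines. Between members, r was 0.937 for Notch3 and Prag1, 0.916 for Lars2 and Prag1 and -0.923 for Tmem63a and Zdhhc15. The points share genotype and library, and picking genes for the same contrast favours such values.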

How the data were processed

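Total RNA of the 10 lines was depleted of ribosomal RNA, made into stranded libraries and sequenced single-end. The authors used Salmon 0.8.1 with GRCm39 transcripts. The deposited estimated counts (expected counts that need not be whole) are not normalized, and the deposited TPM are scaled by effective length to 1 total per line. Here the counts were added up per gene and then rounded. A GRCm38 annotation (GENCODE) paired 98.97% of 116357 transcripts with 35427 genes by identifier, and reads of the rest, 0.472% to 0.499% per line, were left out. It supplied names, transcript types and gene order.

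Genes reaching 20 reads in 1 line or more were tested with edgeR 4.0.16 (TMM, quasi-likelihood, Benjamini-Hochberg over all genes) in R 4.3.3, on the 2 genotypes compared. The authors' methods used 3 surrogate variables, which were tried as an alternative (sva 3.50.0), as was DESeq2 1.42.0. Places and correlations used log2 CPM with a prior count of 2. No library was a copy of another of its genotype. A planned test of transcript usage, checked on simulated libraries, called about as many unchanged as changed genes, so its results were set aside and shares of transcripts are given with no test. A list of 8 rRNA genes was not analysed here, because none matched a gene name.

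The 6 genes and the lists were chosen with earlier results of these data known. Named besides the 6 genes are up to 4 called genes of each list with the smallest p, the 3 tested neighbours on each side and the 3 genes with the highest r. Hes1, Csk, Rnd2, Tmem63c, Sh2d1a, Slamf6, Jag2 and single neighbours were named after their values were seen. The test was checked on simulated data. Some results are not given here.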

Additional observations from a re-analysis of the deposited data

How the results depend on the processing

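Counts of called genes moved far more than the values of the 6 genes. Between Tdg-/- and Tdg+/- lines edgeR called 1261 genes, with 12 to 5659 when 1 line was left out, 464 with an effective length offset, 5805 with 3 surrogate variables and 3291 with DESeq2. Between Tdg-/- and wt it called 10, with 3 to 3077 when 1 line was left out, 19 with no filter beyond 1 read, 27 with 3 surrogate variables and 98 with DESeq2. Between Tdg+/- and wt it called 4, with 0 to 207 when 1 line was left out, 269 with no filter beyond 1 read, 11 with at least 20 reads in 3 lines, 23 with all 10 lines in 1 fit, 0 with the length offset (2237 at an unadjusted p under 0.05), 3586 with 3 surrogate variables and 744 with DESeq2. The cause was not tested. Lines with the same replicate number did not all deviate together (r from -0.21 to 0.19, over 0.1 in 2 of 9 cases). In every genotype, however, line 1 was the line that differed most from the others. Such values cannot settle whether the numbers pair lines, and this was not tested further. A replicate block gave 6, 5 and 33 calls in these comparisons.

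Under 16 alternatives the Tdg-/- to Tdg+/- direction of the 6 genes was reversed in 0 cases, but calls were lost. With the length offset Tmem63a was at -0.7529 (adjusted p = 0.483), with the replicate block the adjusted p of the 5 called genes was 0.0563 to 0.130, and Notch3 and Tmem63a did not pass without Tdg-/- line 2 or 4 or Tdg+/- line 2 or 3 (0.0508 to 0.0875), nor Tmem63a without Tdg-/- line 3 (0.0646). Against wt, the log2 fold change of Tmem63a in Tdg-/- lines, -0.0039, crossed 0 with factors from genes outside chromosome 11 (0.0059), a filter on 3 lines (0.0028), surrogate variables (0.1162), the replicate block (0.0132) and in 3 of the leave-outs (-0.0401 to 0.0313). Lars2 in Tdg+/- lines ranged over the leave-outs from -0.1577 (without wt line 3) to 1.1293 (without wt line 1), with -0.0635 without wt line 2. With 3 surrogate variables all 6 genes passed for Tdg+/- against wt. Reads limit Slamf1 (21 to 76 per line), Prag1 and Tmem63a most. Results of the planned test of transcript usage, with its other filter and its block, were set aside after its check on simulated libraries.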
